A study of Mus musculus with 12 samples.

Results

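Skeletal muscle is built and renewed under a small set of transcription factors, and the transcripts of 9 genes tied to this lineage were followed in newborn mouse skull. They were Pax7, the muscle regulatory factors Myf5, Myf6, Myod1 and Myog, the head muscle factors Tbx1, Msc and Tcf21, and Chrna1, a subunit of the acetylcholine receptor at the nerve-muscle junction. These 9 of the 23358 genes in the deposited table were picked by symbol. Pax7 had been among the largest decreases in mutants when genotype was averaged over both strains, so its values in contrasts that use those samples are described here without a test. Where counts of calls include Pax7, nothing is read from its call. Acta1, the actin of the skeletal muscle filament, stood beside them as a measure of how much muscle each sample held.

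Bulk RNA sequencing had been run on 12 samples of frontal bone tissue from mice at postnatal day 3, and the nasal bone and 2 kinds of suture, coronal and frontonasal, were part of the piece taken. The 4 groups of 3 samples were wild type C57BL/6, C57BL/6 heterozygous for the C342Y change in Fgfr2 (a mouse model of Crouzon syndrome), wild type BALB/c, and BALB/c heterozygous for the same change. The labels name no driver for the mutation, and each background is an inbred strain. The tissue was not sorted: it was digested with collagenase and trypsin and extracted whole. Nothing in the labels says that the 3 samples of a group were separate animals, so p-values measure the spread between these samples. Each strain carried its own run identifier, and strain and sequencing run cannot be told apart.

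In muscle, Pax7 marks satellite cells, the resident stem cells that lie against the fibre. Their progeny switch on Myf5 and Myod1 as they commit, then Myog as they stop dividing and fuse, and Myf6 as fibres mature. Tbx1, Msc and Tcf21 act upstream in the muscles of the head, which form from branchial mesoderm without Pax3. Pax7 is not confined to muscle, since neural crest and cells of the developing nose also express it. Myod1 and its relatives bind the E-box, a 6-base word with the letters CANNTG.

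The start regions of 3 of the genes are printed because they differ in that word. RefSeq windows of 300 bases around a gene start (GRCm38.p6) were found for 6 of the 9 genes, namely Pax7, Myf5, Myog, Tbx1, Tcf21 and Chrna1, and not for Myf6, Myod1 and Msc. The windows lie at chr1:134289754-134290053 on the plus strand for Myog, at chr2:73580289-73580588 on the minus strand for Chrna1 and at chr4:139832919-139833218 on the minus strand for Pax7. Each is written 5′ to 3′ with every CANNTG word in capitals.
Myog: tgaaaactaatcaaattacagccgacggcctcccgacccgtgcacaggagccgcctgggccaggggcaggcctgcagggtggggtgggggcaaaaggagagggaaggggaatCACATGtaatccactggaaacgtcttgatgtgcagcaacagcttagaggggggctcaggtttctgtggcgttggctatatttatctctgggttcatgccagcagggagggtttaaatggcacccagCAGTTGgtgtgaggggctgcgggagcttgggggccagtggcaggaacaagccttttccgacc
Chrna1: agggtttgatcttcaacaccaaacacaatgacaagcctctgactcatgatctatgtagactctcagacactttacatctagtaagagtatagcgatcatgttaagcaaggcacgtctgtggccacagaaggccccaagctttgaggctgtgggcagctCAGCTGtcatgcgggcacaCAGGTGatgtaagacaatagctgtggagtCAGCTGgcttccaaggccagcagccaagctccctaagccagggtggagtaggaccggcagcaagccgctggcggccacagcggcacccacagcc
Pax7: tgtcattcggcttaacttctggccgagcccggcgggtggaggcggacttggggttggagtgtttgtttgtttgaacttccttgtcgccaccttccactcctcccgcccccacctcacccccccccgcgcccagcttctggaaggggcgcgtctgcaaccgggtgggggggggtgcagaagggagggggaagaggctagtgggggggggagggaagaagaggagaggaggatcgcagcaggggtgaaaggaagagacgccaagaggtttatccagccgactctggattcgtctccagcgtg
The Myog window held 2 such words, CACATG at -138 and CAGTTG at -12 from the start. The Chrna1 window held 3, CAGCTG at -92, CAGGTG at -73 and CAGCTG at -44. The Pax7 window held 0, as did those of Myf5 and Tcf21, and of the 2 Tbx1 windows 1 held 2 words. The word is common: 72.3% of 32851 RefSeq windows of the same length held at least 1, 39.6% held at least 2 and 17.6% held at least 3. CAGCTG, a special case of CANNTG, was in 16.3% of windows, and CACCTG, read on both strands and so including CAGGTG, in 20.2%. These matches describe letters, not bound sites.

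Library totals ran from 27181658 to 46521546 counts. All counts were even, which is what counting both reads of a pair gives. The limit that a count of 0 allows (3 read pairs, or 6 counts) corresponds to 0.129 to 0.225 CPM (counts scaled to library size) depending on the library; such limits cover counting error only. Fgfr2 stood at 212 to 283 CPM in C57BL/6 wild type, 337 to 375 in C57BL/6 mutant, 269 to 290.2 in BALB/c wild type and 271 to 318 in BALB/c mutant samples; the change is a point mutation, so this level does not check the genotype. Genes of the osteoblast list (Col1a1, Bglap, Ibsp and others, 9 genes) summed to between 108298 and 250289 CPM, so the labelled bone was present in every library. C57BL/6 mutant replicate 4 stood apart, with a Pearson r of 0.958 to each of replicates 5 and 6, against 0.981 to 0.991 for the other pairs within groups. Summed Y-linked transcripts were at 152 to 161 CPM in all C57BL/6 wild type samples, while each other group held samples both high and near 0.

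All 9 genes were rare. Per length, on the scale of RPKM, which divides reads by gene length and library size, the highest group mean of any of them was 0.772 ± 0.151 (SD, n = 3), for Msc in BALB/c wild type. Tcf21 had 0 counts in each of the 12 libraries; it overlaps the predicted gene Gm10824, and how reads shared by both were counted is not given in the sources used here. Of the 9, 5 passed the filter on low counts (Pax7, Myog, Tbx1, Msc and Chrna1) and 4 did not (Myf5, Myf6, Myod1 and Tcf21), so counts of calls below refer to 5 genes. In the C57BL/6 wild type group the order by mean RPKM was Pax7 (0.766 ± 0.557), Myog (0.419 ± 0.672), Tbx1 (0.407 ± 0.280) and Msc (0.359 ± 0.265), with neighbours closer than their SDs (n = 3). Pax7 held the fourth place in C57BL/6 mutants (0.0827 ± 0.0457), the fifth in BALB/c wild type (0.102 ± 0.0830) and the eighth in BALB/c mutants (0.0272 ± 0.0237), where only Tcf21 was lower. Msc was first in those 3 groups.

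**Figure D1:**
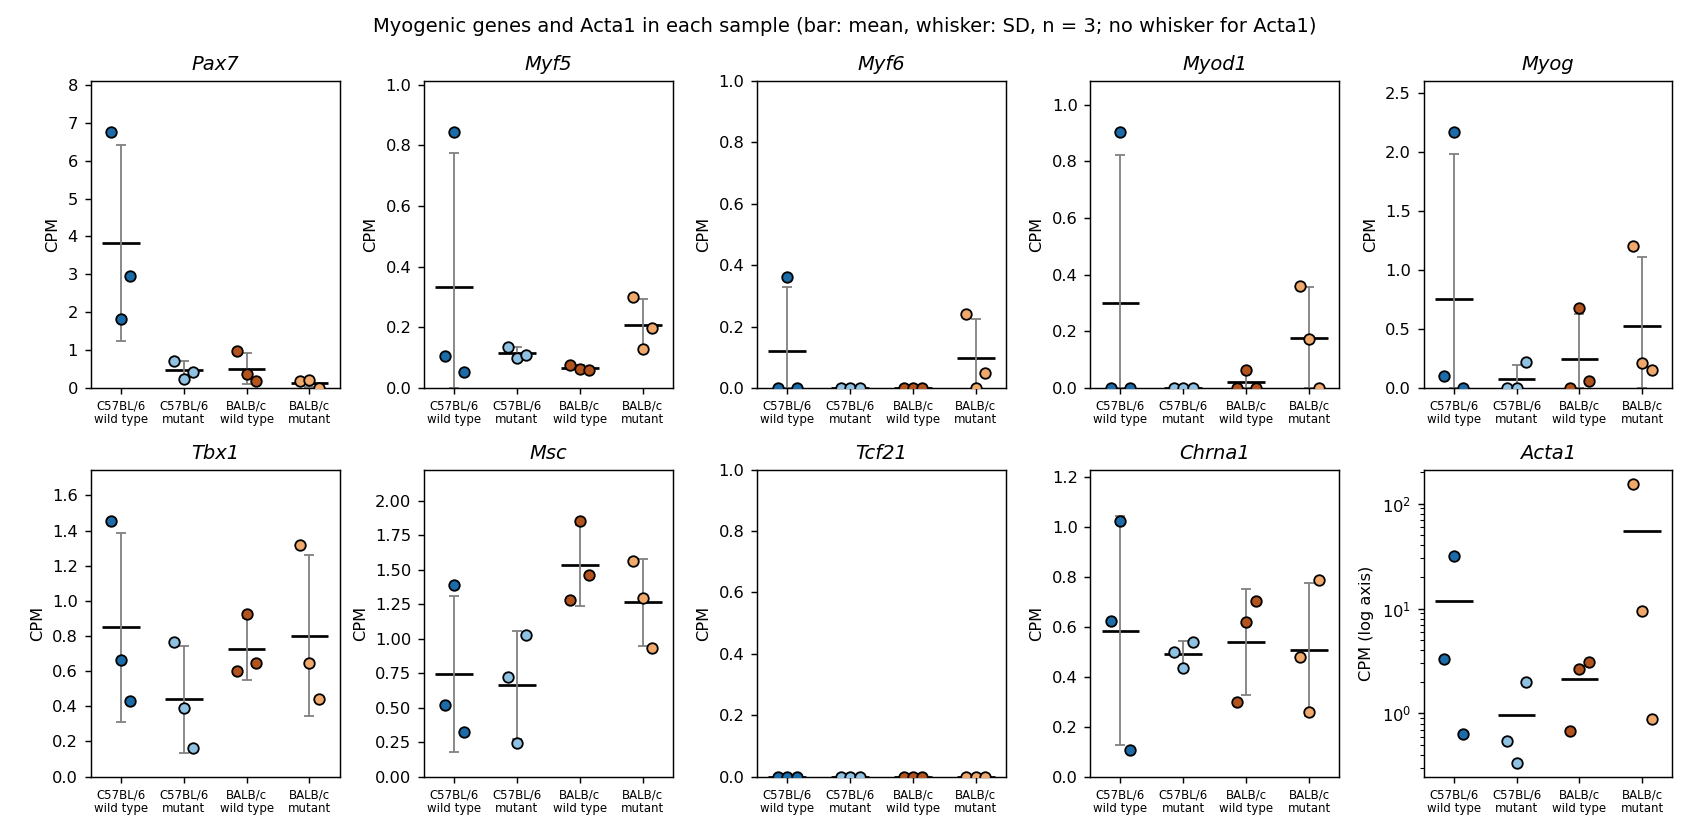
Level of each gene in CPM (vertical axis, logarithmic for Acta1 only) in the 4 groups on the horizontal axis; points are samples, bars the mean and whiskers the SD of 3 samples, stopped at 0 and not drawn for Acta1. Pax7 is high in all 3 C57BL/6 wild type samples, whereas Myod1, Myf6 and Myog peak in replicate 2 of the C57BL/6 wild type and replicate 16 of the BALB/c mutants.

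Pax7, the satellite cell factor (chromosome 4, 139738081 to 139832968, 0 overlapping genes), was the only one of the 9 that was high in every C57BL/6 wild type sample. Its counts were 260, 60 and 110 in C57BL/6 wild type replicates 1, 2 and 3, that is 6.75, 1.81 and 2.95 CPM. In C57BL/6 mutants they were 32, 10 and 16 (0.723, 0.243 and 0.431 CPM). In BALB/c wild type samples they were 26, 12 and 6 (0.977, 0.371 and 0.176 CPM), and in BALB/c mutants 6, 10 and 0 (0.180, 0.215 and 0 CPM). The lowest C57BL/6 wild type sample thus lay above all 9 samples of the other groups. By group mean the order was C57BL/6 wild type (3.84 ± 2.59 CPM), BALB/c wild type (0.508 ± 0.418), C57BL/6 mutant (0.466 ± 0.242) and BALB/c mutant (0.132 ± 0.115; SD, n = 3 each). BALB/c wild type and C57BL/6 mutant samples overlapped. The 2 mutant groups were parted only by 0.215 against 0.243 CPM, which is 10 counts in each of those libraries, and 50.2% of tested genes had no overlap between these groups.

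In C57BL/6 the fitted Pax7 difference between mutant and wild type was -3.03 on the log2 scale (SE 0.772), and the groups did not overlap, as was true of 41.6% of all genes tested. In BALB/c it was -1.88 (SE 0.901), with overlapping groups and at most 26 counts in any library. With 1 library left out the BALB/c value ran from -2.51 to -1.02. Averaged over strains it was -2.46 (SE 0.589), the value through which the gene was chosen. In the authors' deposited table the Pax7 log2 values were -1.30 for C57BL/6 mutant over wild type and -0.25 for BALB/c mutant over wild type. The genotype effect in BALB/c minus that in C57BL/6 was 1.15 (SE 1.21), and 0.43 to 2.02 with 1 library left out. The fitted C57BL/6 value was -2.32, -2.72 and -2.98 without C57BL/6 wild type replicate 1 and mutant replicates 5 and 6, and -0.72 with a motile cilia covariate that genotype largely set in this strain (76.5% of its variance).

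Between strains, Pax7 was lower in BALB/c than in C57BL/6 wild type by a log2 difference of -2.94 (SE 0.782), with no overlap, as was true of 57.5% of tested genes. With the motile cilia covariate the value was 0.11, which turned its direction. This contrast shares its 3 C57BL/6 wild type samples with the genotype contrast through which the gene was chosen, so no p is given and it is no independent support. In mutants the strain difference was -1.80 (SE 0.885).

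**Figure D2:**
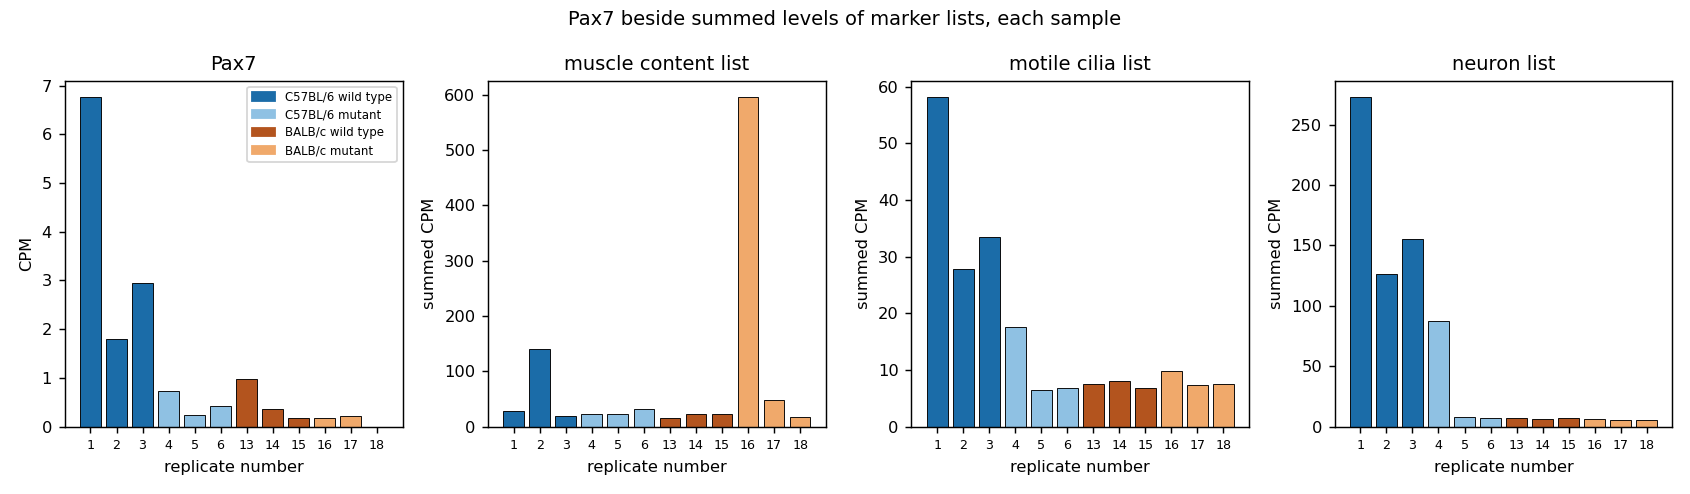
Pax7 in CPM and the summed CPM of the muscle, motile cilia and neuron lists (vertical axes, all from 0) in each of the 12 samples, coloured by group. The motile cilia and neuron sums are high in the same 3 C57BL/6 wild type libraries as Pax7, while the muscle sum peaks in replicates 2 and 16.

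The 3 libraries rich in Pax7 were also rich in transcripts of tissue that lines the nose. The motile cilia list (13 genes, such as Foxj1) summed to 58.1, 27.8 and 33.5 CPM in C57BL/6 wild type replicates 1, 2 and 3, in the same order as Pax7. In C57BL/6 mutants it was 17.6, 6.45 and 6.84 CPM, with replicate 4 highest for both, and in the 6 BALB/c samples it lay between 6.85 and 9.83 CPM. Olfactory neuron genes (7, such as Omp) summed to 211 to 319.7 CPM in C57BL/6 wild type, 129.9 to 199.99 in C57BL/6 mutant and 79.3 to 89.4 in BALB/c samples. For genotype in C57BL/6, 2 of these 7 were lower, 1 was higher and 4 did not pass, and in BALB/c mutant replicate 18 the sum of 89.4 CPM came with 4 of the 7 at 0. Nasal secretory genes (6, such as Bpifa1) had sums of 205 to 648, 0.340 to 129 and 0.150 to 0.492 CPM in the same order. General neuron genes (5, such as Tubb3) had sums of 127 to 272, 6.84 to 87.9 and 5.81 to 7.03 CPM. The part of this content in the Pax7 values was not tested. Lower Pax7 in bulk tissue can come from fewer cells of a type or from less RNA per cell, which cannot be told apart here.

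The muscle list did not follow Pax7. It holds 16 genes of the contractile apparatus and the fibre, with at most 1 of them at 0 in any library. In C57BL/6 wild type its sum was 27.7, 140.1 and 18.8 CPM, highest in replicate 2, which had the lowest Pax7 of the 3. In BALB/c mutants it was 595, 48.9 and 16.98 CPM in replicates 16, 17 and 18, where Pax7 was at 6, 10 and 0 counts. In the other 6 libraries it was 16.1 to 32.3 CPM. For genotype within C57BL/6, 0 of the 16 muscle genes passed, against 23.9% of all genes, with a median log2 difference of -3.01. Among mutants 13 of the 16 were higher in BALB/c, against 36.9% of all genes called, and for the difference of the genotype effects between strains 6 of 16 passed, against 10%. Both counts changed when single libraries were left out, as fits added after seeing the data showed. The count between mutants was 2 without BALB/c mutant replicate 16 (27.8% of all genes called), 2 without C57BL/6 mutant replicate 5 (33%), 7 without C57BL/6 mutant replicates 4 or 6 (33.4% and 31.8%), and 0 by limma-voom (36.4%). The count for the difference of effects was 0 by limma-voom (10.3% of all genes called), 0 with the motile cilia or Y-linked covariate (0.0988% and 7.1%), and 10 by DESeq2 (17.5%). With 1 library left out it was 0 without C57BL/6 wild type replicate 2, C57BL/6 mutant replicates 5 or 6, BALB/c wild type replicates 13, 14 or 15, or BALB/c mutant replicate 16, 2 without C57BL/6 wild type replicate 1 and 3 without BALB/c mutant replicate 17. In those fits 3.87% to 8.97% of all genes were called.

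Acta1 itself (chromosome 8, 123891767 to 123894736) varied widely. Its counts were 128, 1052 and 24 in C57BL/6 wild type, 24, 14 and 74 in C57BL/6 mutant, 18, 86 and 106 in BALB/c wild type, and 5170, 436 and 36 in BALB/c mutant samples. The groups overlapped in all 4 pairwise contrasts. Its genotype values were -3.66 in C57BL/6 (SE 1.74, adjusted p 0.141) and 4.64 in BALB/c (SE 1.65, adjusted p 0.299), and they were -1.10 without C57BL/6 wild type replicate 2 and 1.25 without BALB/c mutant replicate 16. Among mutants it was higher in BALB/c by 5.88 (SE 1.79, adjusted p 0.0226, edgeR), and by limma-voom the value was 3.74 and did not pass (adjusted p 0.433). Without BALB/c mutant replicate 16 that value was 2.44 (adjusted p 0.208), and without C57BL/6 mutant replicates 4 or 5 it was 5.59 or 5.47 (adjusted p 0.0514 and 0.0694).

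The commitment factors Myf5 and Myod1 were close to the limit of detection. Myod1 (chromosome 7, 46376474 to 46379092) had 30 counts in C57BL/6 wild type replicate 2, 12 and 8 in BALB/c mutant replicates 16 and 17, 2 in BALB/c wild type replicate 14 and 0 in the other 8 libraries. Those 4 libraries were also the 4 with the most Myog counts. Myf5 (chromosome 10, 107482908 to 107486134) was the more even of the pair. It had 4, 28 and 2 counts in C57BL/6 wild type, 6, 4 and 4 in C57BL/6 mutant, 2 in each BALB/c wild type, and 10, 6 and 8 in BALB/c mutant samples. Only replicates 16 and 18 of the BALB/c mutants and replicate 2 of the C57BL/6 wild type exceeded 6 counts. Within BALB/c the mutants all lay above the wild types, at 0.129 to 0.300 against 0.0586 to 0.0751 CPM, which is 3 to 5 read pairs in each mutant against 1 in each wild type. Such a separation was seen in 20.0% of tested genes.

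The differentiation factors followed the same libraries. Myog (chromosome 1, 134290004 to 134292548), which drives fusion and the fibre programme, had 4, 72 and 0 counts in C57BL/6 wild type and 0, 0 and 8 in C57BL/6 mutant samples. In BALB/c it had 0, 22 and 2 counts in wild type and 40, 10 and 6 in mutant samples. Groups overlapped in every pairing. Myf6 (chromosome 10, 107492860 to 107494729), the factor of maturing fibres, had 12 counts in C57BL/6 wild type replicate 2, 8 and 2 in BALB/c mutant replicates 16 and 18, and 0 in the other 9. Myf5 and Myf6 are neighbours on chromosome 10, and in both genes replicates 2 and 16 were the highest libraries.

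Myog was the only muscle regulatory factor that could be tested. Its log2 differences were -3.40 for genotype in C57BL/6 (SE 1.81, adjusted p 0.186), 1.01 for genotype in BALB/c (SE 1.60, 95% interval -2.13 to 4.15), -1.56 for BALB/c against C57BL/6 in wild type (SE 1.59) and 2.85 in mutants (SE 1.83, adjusted p 0.243). The genotype effect in BALB/c minus that in C57BL/6 was 4.41 (SE 2.42, adjusted p 0.245, edgeR). None of these passed, and with all genes kept none of Myf5, Myf6 and Myod1 passed in any contrast (smallest adjusted p 0.0817, Myf5 between wild type strains). The 95% interval for Myog in C57BL/6 ran from -6.96 to 0.15. Single libraries set these values. The Myog genotype value in C57BL/6 was 0.35 without wild type replicate 2 and -7.80 without mutant replicate 6, and in BALB/c -0.46 without mutant replicate 16 and 3.85 without wild type replicate 14. The Myog difference between the strains ran from 0.67 without C57BL/6 wild type replicate 2 to 8.80 without C57BL/6 mutant replicate 6.

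**Figure D3:**
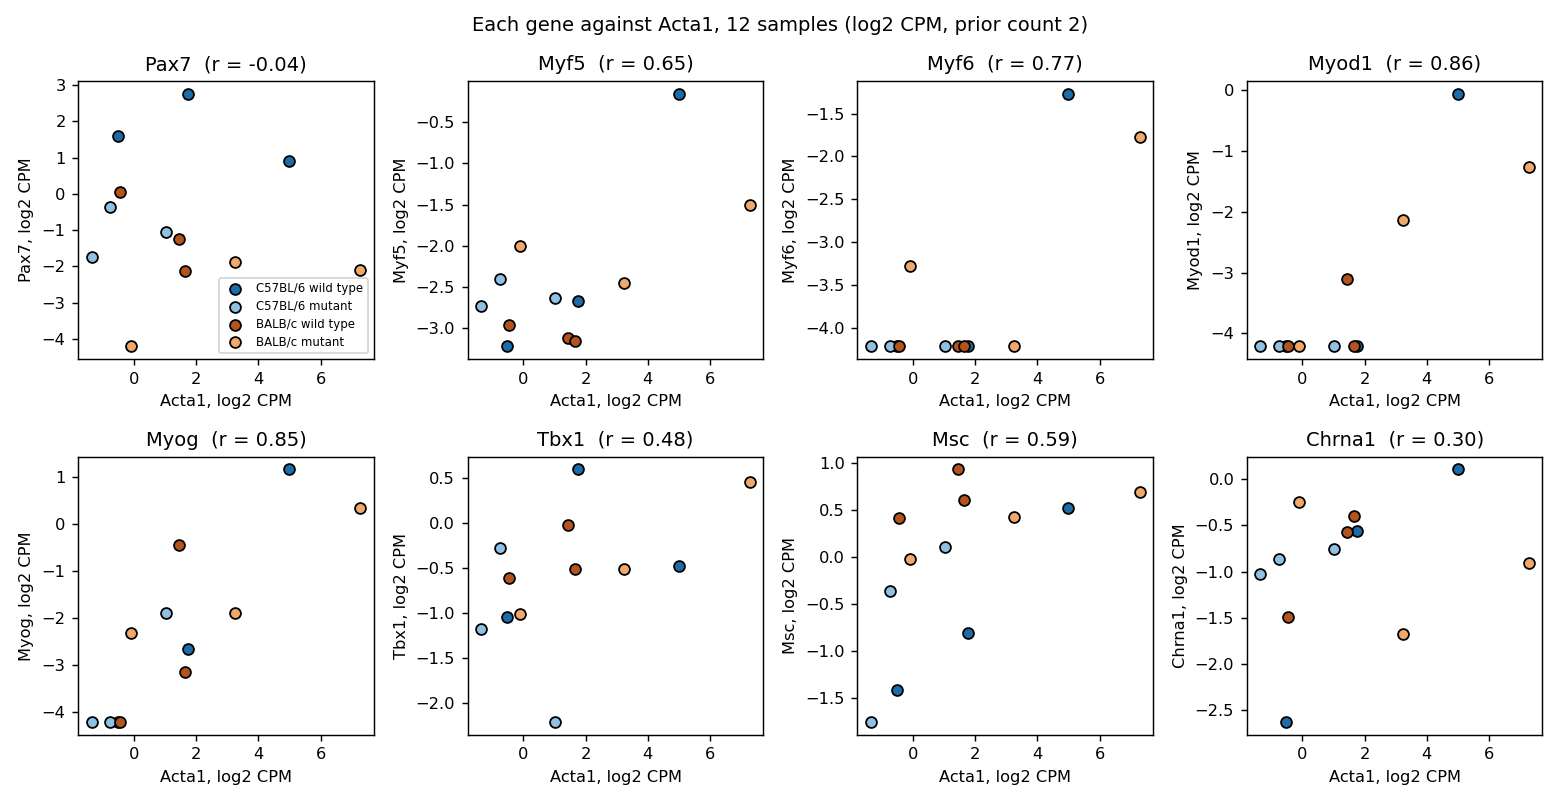
Log2 CPM of each gene (vertical axis) against log2 CPM of Acta1 (horizontal axis), 1 point per sample, with the Pearson r over the 12 samples in each title and Tcf21 left out since it is at 0 throughout. Myod1 and Myog rise with Acta1 (r 0.86 and 0.85), and Pax7 does not (r -0.04).

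Across the 12 samples the log2 level of each gene was set against that of Acta1, in 8 relations. Myog had a Pearson r of 0.85 (permutation p 0.00058, 0.00464 adjusted over the 8 relations) and a Spearman rho of 0.82 (permutation p 0.00223, adjusted 0.0178). Myod1 had r 0.86 (permutation p 0.00166, adjusted 0.00664) and rho 0.76 (adjusted 0.0258). Myf6 had r 0.77 (permutation p 0.0119, adjusted 0.0316) but rho 0.52 (adjusted 0.138). Myf5 (r 0.65, permutation p 0.0286, adjusted 0.0573), Tbx1 (r 0.48, adjusted 0.161) and Chrna1 (r 0.30, adjusted 0.391) did not pass. For Msc r was 0.59 (permutation p 0.0424, adjusted 0.0678) and rho 0.69 (adjusted 0.0404). For Pax7 r was -0.04 (permutation p 0.909) and rho -0.13 (permutation p 0.698).

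The 2 samples farthest from the median of Acta1 were replicate 16 of the BALB/c mutants and replicate 2 of the C57BL/6 wild type. Over the other 10 samples r was 0.70 for Myog, 0.70 for Myod1, 0.58 for Msc, 0.30 for Tbx1 and 0.16 for Chrna1. It was -0.17 for Myf6, -0.02 for Myf5 and -0.02 for Pax7, so the relations of Myf6 and Myf5 rested on those 2 samples. Among the 10 samples Myod1 was above 0 only in BALB/c mutant replicate 17 (8 counts) and BALB/c wild type replicate 14 (2 counts), so its r rests on few reads. Within the 6 C57BL/6 samples r was 0.97 for Myog (exact permutation p 0.0167) and 0.87 for Myod1 (exact permutation p 0.167), and within the 6 BALB/c samples 0.75 for Myog (exact permutation p 0.0722) and 0.92 for Myod1 (exact permutation p 0.0167). In C57BL/6 only wild type replicate 2 held any Myod1 counts, so that r marks 1 library and its exact p could not have been lower. None of the within-strain relations passed after adjustment over 8 relations (lowest adjusted p 0.133). For Pax7 r was 0.42 in C57BL/6 and -0.06 in BALB/c.

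Among the head muscle factors, Tbx1 (chromosome 16, 18581713 to 18586969), a T-box factor of the pharyngeal region, was found in every library. Its counts were 56, 22 and 16 in C57BL/6 wild type, 34, 16 and 6 in C57BL/6 mutant, 16, 30 and 22 in BALB/c wild type and 44, 30 and 18 in BALB/c mutant samples. The highest library of each C57BL/6 group was the one with the highest motile cilia sum, replicate 1 and replicate 4. The genotype value was -0.93 in C57BL/6 (SE 0.608, 95% interval -2.13 to 0.26, adjusted p 0.278) and 0.13 in BALB/c (SE 0.601, interval -1.04 to 1.31). The Tbx1 value in C57BL/6 was -0.28 without wild type replicate 1 and -1.61 without mutant replicate 4, and in BALB/c it was -0.41 without mutant replicate 16. Neither passed, and all groups overlapped.

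Msc (chromosome 1, 14753346 to 14755966), which encodes musculin, a basic helix-loop-helix repressor of muscle precursors and of some lymphoid cells, had higher means in BALB/c that did not pass the test. It had 20, 46 and 12 counts in C57BL/6 wild type and 32, 10 and 38 in C57BL/6 mutant samples. In BALB/c it had 34, 60 and 50 counts in wild type and 52, 60 and 38 in mutant samples. The means were 0.742 ± 0.566 and 0.663 ± 0.394 CPM in C57BL/6 and 1.53 ± 0.294 and 1.26 ± 0.313 CPM in BALB/c (wild type, then mutant; SD, n = 3). BALB/c was higher by 1.05 in wild type (SE 0.551, adjusted p 0.134) and by 0.93 in mutants (SE 0.549, adjusted p 0.206), and neither passed. Only C57BL/6 wild type replicate 2 (1.39 CPM), the one rich in muscle, reached the BALB/c wild type range, and without it the wild type value was 1.86 (adjusted p 0.0190, edgeR). The Msc genotype values were -0.16 in C57BL/6 (95% interval -1.25 to 0.94) and -0.28 in BALB/c (interval -1.33 to 0.77). With 1 library left out the C57BL/6 value ran from -0.60 to 0.65.

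Chrna1 (chromosome 2, 73563281 to 73580306) had close means in the 4 groups, from 0.491 ± 0.0514 CPM in C57BL/6 mutants to 0.585 ± 0.459 CPM in C57BL/6 wild type samples (SD, n = 3). Its counts were 24, 34 and 4 in C57BL/6 wild type, 22, 18 and 20 in C57BL/6 mutant, 8, 20 and 24 in BALB/c wild type and 16, 12 and 32 in BALB/c mutant samples. BALB/c mutant replicate 16, with the most Acta1, had only 16 counts of it. The fitted differences lay between -0.24 and 0.14 over the 5 contrasts, with SEs of 0.642 to 0.913. With 1 library left out the C57BL/6 genotype value ran from -0.74 to 0.42, and the difference of effects from -0.52 to 0.64. The 95% interval for genotype in C57BL/6, -1.50 to 1.01, leaves room for changes of more than 2-fold. Of its 50-base words 3.02% occur in other genes, and it overlaps the predicted gene Gm30940, with the strand setting of the counting not given in the sources used here.

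**Figure D4:**
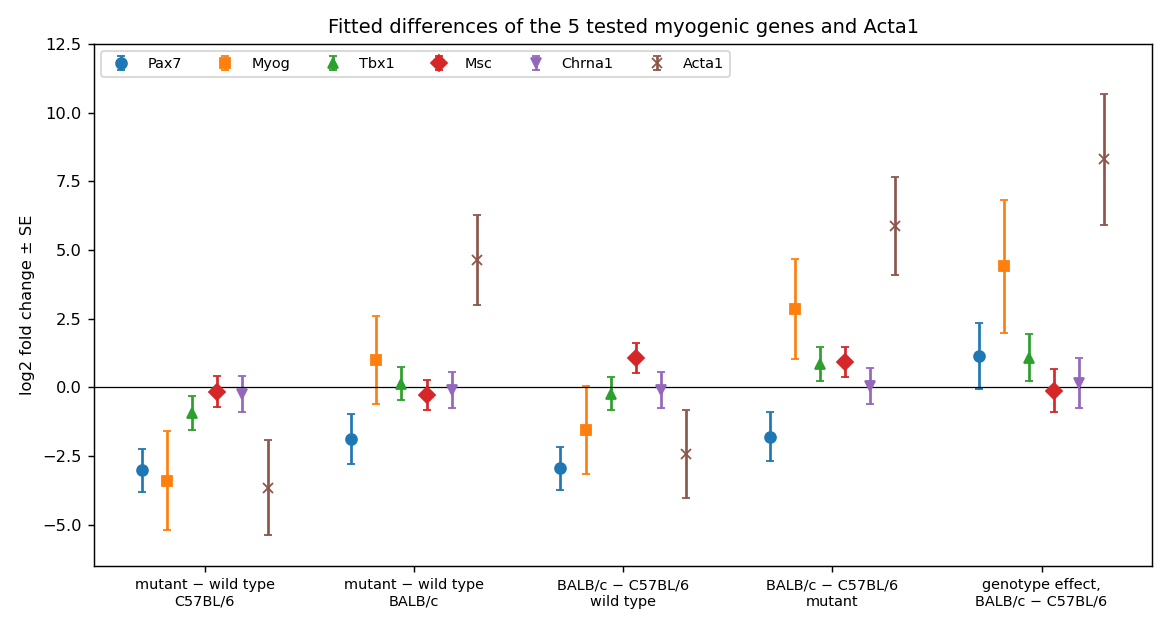
Fitted log2 differences (vertical axis) with SE whiskers for the 5 genes that passed the low-count filter and Acta1, in 5 contrasts on the horizontal axis. Pax7 lies below 0 in the first 4 contrasts, Acta1 and Myog lie on opposite sides in the 2 strains, which for Myog no longer holds without C57BL/6 wild type replicate 2 (0.35) or BALB/c mutant replicate 16 (-0.46), and Chrna1 stays near 0.

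The calls among the 5 tested genes were set against those over the whole table. For genotype in C57BL/6, 1 of 5 was called (Pax7), against 23.9% of 16190 genes; the rule used this difference, and nothing is read from it. For genotype in BALB/c edgeR called 0 of 5, against 0.136% of all genes, and 0 of 5 had an unadjusted p under 0.05, against 11.7% of all genes; DESeq2 and limma-voom also called 0. Between wild type strains 1 of 5 was called (Pax7, on samples through which it was chosen) against 48.5%, and between mutant strains 0 of 5 against 36.9%. For the difference of the genotype effects between strains 0 of 5 were called against 10%. Averaged over strains 1 of 5 was called, Pax7, which was chosen through this value; the share of all genes was 7.99%, and nothing is read from the count. The median log2 difference of the 5 was -0.93 for genotype in C57BL/6, against -0.0040 over all genes, and -0.10 in BALB/c, against 0 over all genes. The first is the value of Tbx1, which was -0.28 without C57BL/6 wild type replicate 1. Both medians include Pax7, chosen through its decrease, and nothing is read from them. In both other contrasts with 0 calls, 0 of the 5 had an unadjusted p under 0.05, against 46.8% of all genes between mutant strains and 29.5% for the difference of effects, and DESeq2 and limma-voom called 0.

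Of the genes that act above the myogenic factors, 4 fell in C57BL/6 mutants. The list of 10 such genes had 9 tested members, of which 4 fell, 0 rose and 5 did not pass for genotype in C57BL/6 (edgeR, 12.6% of all genes fell). Their median log2 difference was -0.87. Eya1, Eya2 and Eya4, transcriptional cofactors, fell by 0.87, 0.96 and 1.18 on a log2 scale (adjusted p 0.00402, 0.000683 and 0.00473, edgeR), and Pax3 was the other. Eya genes also serve the olfactory placode. The olfactory neuron sum was 211 to 319.7 CPM in C57BL/6 wild type and 129.9 to 199.99 CPM in mutant samples, and its part in these differences was not tested. With the motile cilia covariate Eya1, Eya2 and Eya4 were at -0.075, -0.36 and -0.16 and did not pass (adjusted p 0.981, 0.656 and 0.970). Genotype set 76.5% of the variance of that covariate in C57BL/6, so it takes up much of the genotype difference itself. In BALB/c 0 of the 9 passed, against 0.136% of all genes.

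Pax3, the paralogue of Pax7, was also highest in all 3 C57BL/6 wild type samples. It stood at 7.61 to 19.8 CPM in C57BL/6 wild type, 0.194 to 4.79 in C57BL/6 mutant, 0.468 to 1.05 in BALB/c wild type and 0.344 to 0.861 CPM in BALB/c mutant samples. In C57BL/6 it fell by 2.80 (SE 0.904, adjusted p 0.0426, edgeR), and between wild type strains it was lower in BALB/c by a log2 difference of -4.005 (SE 0.986, adjusted p 0.00585). The C57BL/6 genotype call was lost without any 1 of 10 libraries, with values of -2.27 (without C57BL/6 wild type replicate 1, adjusted p 0.137) to -2.95 (without wild type replicate 2, adjusted p 0.0605). It was kept without C57BL/6 wild type replicate 3, and without mutant replicate 4, the highest of its group, the Pax3 value was -5.73 (adjusted p 3.30e-05, edgeR). With the motile cilia covariate, largely set by genotype in this strain (76.5% of its variance), Pax3 was at 0.81 (adjusted p 0.908). The motile cilia, nasal and neuron sums given above were highest in the same 3 libraries, and their part in the Pax3 values was not tested.

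Genes used by satellite cells and myoblasts changed in both directions. Of 10 tested, 3 rose and 4 fell in C57BL/6 mutants (11.3% and 12.6% of all genes), 3 did not pass, and 0 passed in BALB/c (0.136% of all genes). Megf10, a receptor of satellite cells, rose by 0.68 (SE 0.0738, adjusted p 0.000245, edgeR), Cdh15, M-cadherin, by 0.64 (adjusted p 0.0248) and Heyl, a Notch target, by 0.34 (adjusted p 0.0207). Fgfr4, the FGF receptor of myoblasts, fell by 1.59 (SE 0.507, adjusted p 0.0407), from 3.24 ± 1.02 to 1.07 ± 0.617 CPM (SD, n = 3). Chodl fell by 1.03, Cxcr4, the chemokine receptor of migrating precursors, by 0.61, and Cdon, a hedgehog co-receptor, by 0.51 (adjusted p 0.00818, 0.00604 and 0.00521, edgeR). Cxcr4 was at -0.27 and Cdon at -0.30 with the motile cilia covariate, and neither passed (adjusted p 0.928 and 0.857). Megf10, Cdh15, Cdon and Boc stood at 27.97 to 121 CPM in every group mean, far above the 9 genes, in libraries where Myod1 was mostly at 0. The Heyl difference was 0.15 (adjusted p 0.237) when libraries were scaled by total counts, which shifted all genes in this contrast by a median of -0.20. The Fgfr4 call was lost in 7 of 12 fits that left out 1 library, with values of -1.65 to -1.30 and adjusted p up to 0.125: without C57BL/6 wild type replicates 1 or 2, C57BL/6 mutant replicates 5 or 6, BALB/c wild type replicates 13 or 14, or BALB/c mutant replicate 16. Cdh15 lost its call without C57BL/6 mutant replicates 5 or 6 (0.66 and 0.62, adjusted p 0.0519 and 0.0737), and Heyl without C57BL/6 wild type replicate 1 or mutant replicate 6 (0.32 and 0.27, adjusted p 0.0636 and 0.0949). With Acta1 as a covariate Fgfr4 was at -1.20 and Pax3 at -2.77, and neither passed (adjusted p 0.135 and 0.0913, edgeR). Fitted on the 6 C57BL/6 samples alone, Pax3, Fgfr4 and Cdh15 had values of -2.78, -1.59 and 0.63, close to those above, and did not pass (adjusted p 0.144, 0.0728 and 0.0892). With the summed Y-linked genes as a covariate the same 3 were at -3.45, -1.47 and 0.58 and did not pass (adjusted p 0.0527, 0.105 and 0.0631).

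Of the differentiation and fusion list, 6 of 8 were tested, with 3 higher and 1 lower in C57BL/6 mutants (11.3% and 12.6% of all genes) and 0 called in BALB/c (0.136%). The 3 were the MEF2 factors Mef2a, Mef2c and Mef2d, which rose by 0.57, 0.53 and 0.35 (adjusted p 0.00558, 0.00509 and 0.00125, edgeR). All 3 were at 0.16 with the motile cilia covariate and did not pass (adjusted p 0.941, 0.940 and 0.794). Mef2c also acts in bone cells, and its mean went from 182 ± 16.6 to 263 ± 28.5 CPM (SD, n = 3). In the same contrast 7 of 9 osteoblast genes (median 0.58) and 4 of 6 mesenchyme genes (median 0.49) were higher. The osteoblast sum was 108298 to 189108 CPM in C57BL/6 wild type and 207479 to 250289 CPM in mutant samples, the mesenchyme sum 2240 to 3315 and 3257 to 3999 CPM, and their part in these differences was not tested. All 7 erythroid genes were lower, with sums of 209 to 277 and 54.9 to 84.5 CPM. Hes6, a helix-loop-helix factor of myoblasts and of neural precursors, fell by 1.19 (SE 0.238, adjusted p 0.00565), from 31.6 to 46.8 CPM in wild type to 11.3 to 24.5 CPM in mutants. On the 6 C57BL/6 samples alone Hes6 was at -1.18 and did not pass (adjusted p 0.0609), and with the motile cilia covariate it was at 0.057 (adjusted p 0.987). The neuron sum was 127 to 272 CPM in C57BL/6 wild type and 6.84 to 87.9 CPM in mutant samples, and its part in the Hes6 difference was not tested. The genes for the 2 fusion proteins, listed as Tmem8c and Gm7325, did not pass the low-count filter. At the endplate 6 of 8 genes were tested and 1 was called, against 23.9% of all genes. Lrp4, the agrin receptor and also a Wnt regulator in bone, rose by 0.79 (SE 0.0897, adjusted p 0.000338), from 249 ± 11.2 to 429.8 ± 25.1 CPM (SD, n = 3), while Chrng and Musk did not pass the filter.

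The genes whose pattern over the 12 samples was most like that of Pax7, among 12807 genes with a mean of at least 1 CPM, were Ccdc64 (Pearson r 0.95), Fam81a (0.95), Mfge8 (0.95), Ccdc157 (0.93) and Ocln (0.92). Ocln, occludin of epithelial tight junctions, had group means of 3.67, 0.861, 0.430 and 0.166 CPM in C57BL/6 wild type, C57BL/6 mutant, BALB/c wild type and BALB/c mutant samples, the same high group as Pax7. Nearest to Myog were Actc1 (0.91), the actin of embryonic muscle, Col6a6 (0.87) and Tnnc2 (0.86), a troponin of fast fibres. Nearest to Tbx1 were Panx1 (0.92), Ptges2 (0.90) and Rbpms (0.86), to Msc Stab1 (0.95), Zfp768 (0.94) and Edn3 (0.92), and to Chrna1 Ly86 (0.82), Stim2 (0.78) and Slc15a3 (0.73). These were ranked on the same 12 samples, are descriptions and carry no p.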

How the data were processed

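The authors deposited 1 table of gene counts for 12 samples, with an RPKM value per sample and a coding length per gene, and a table of their own comparisons holding a p-value, a q-value and a log2 fold change for each. Per the submitters' processing notes the tools included bcl2fastq, TopHat2 2.0.6, HTSeq and DESeq2 with the mm10 build, given with no order. The deposited RPKM values were used only to rank genes within a group. Coordinates are those of the deposited table, and of its symbols 20720 were shared with RefSeq GRCm38.p6, 99.43% of them overlapping the gene of that name.

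Counts were analysed with edgeR 4.0.16 in R 4.3.3 (filterByExpr with a minimum count of 10 and total of 15, TMM, a quasi-likelihood model with 4 group means). Benjamini-Hochberg adjustment ran over 16190 genes in each of 6 contrasts, and calls were made at an adjusted p under 0.05. The SE is the one implied by the F statistic, CPM uses TMM library sizes, and log2 CPM has a prior count of 2. Counts summed to between 27181658 and 46521546 per library. Correlations used 100000 resamples, or all 720 orderings of 6 samples (scipy 1.17.1). The fit was tested on simulated counts. Alternatives were DESeq2 1.42.0, limma-voom (limma 3.58.1), 2 other scalings, no filter, halved counts, 3 covariates, the 6 samples compared alone and leaving out each library; they were run on the muscle list counts only after seeing the data.

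The 9 genes and the lists were chosen with earlier results of these data known. Some list genes are not reported here and were left out of the list counts. Named besides them are the 5 genes most correlated with Pax7 and the 3 most correlated with each other tested gene (mean of at least 1 CPM, predicted genes skipped), and genes of the 4 pathway lists called in a genotype contrast. Boc, Chrng, Musk, Tmem8c and Gm7325 of those lists are named outside this rule, as are examples from other lists and muscle genes.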

Additional observations from a re-analysis of the deposited data

Results flagged for a closer look

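The genotype effect differed between the strains (BALB/c minus C57BL/6, edgeR, adjusted p under 0.05) for Acta1 and 8 genes of the pathway lists, and for 0 of the 5 tested myogenic genes, against 10% of all genes. In the muscle list Myh8, Ckm, Tnnc2, Tnnt3 and Ryr1 passed beside Acta1 (9.57, 8.36, 7.86, 6.14 and 3.8, adjusted p 0.0346 to 0.0445), and these 5 are named after their values were seen. In fits that left out 1 library the number passing among all 16 genes of that list ran from 0 to 9, and it was 0 without C57BL/6 wild type replicate 2 or BALB/c mutant replicate 16. For Acta1 the difference was 8.30 (SE 2.38, adjusted p 0.0478), and it did not pass in 9 of 12 fits that left out 1 library (5.74 without C57BL/6 wild type replicate 2 and 4.89 without BALB/c mutant replicate 16, adjusted p 0.129 and 0.133). The other 7 such fits gave 7.89 to 9.36, without C57BL/6 wild type replicate 1, C57BL/6 mutant replicates 5 or 6, any of the 3 BALB/c wild type replicates, or BALB/c mutant replicate 17. The Acta1 call was also lost with limma-voom (4.73, adjusted p 0.512), halved counts (8.26, adjusted p 0.0514), the Y-linked covariate (5.72, adjusted p 0.128) and the motile cilia covariate (12.6, adjusted p 0.522). Among genes upstream of the myogenic factors, the value was 0.97 for Eya1 (adjusted p 0.0260) and 0.75 for Eya2 (adjusted p 0.0254), both of which fell in C57BL/6 mutants. Of satellite cell genes, Cxcr4 had 1.03 (adjusted p 0.00663) and Megf10 -0.83 (adjusted p 0.00144), and both passed in all 12 fits that left out 1 library. With the motile cilia covariate Cxcr4 was at 0.66 and Megf10 at -0.67, and neither passed (adjusted p 0.667 and 0.271). Hes6 had 1.22 (adjusted p 0.0425), Mef2c -0.52 (adjusted p 0.0452), Mef2d -0.26 (adjusted p 0.0441) and Lrp4 -0.50 (adjusted p 0.0329). With 1 library left out, the difference passed in 5 of 12 fits for Eya1, 4 for Eya2 and for Lrp4, 3 for Hes6 and for Mef2c, and 2 for Mef2d. With the Acta1 covariate none of these 6 passed (adjusted p 0.0601 to 0.185), at values of 1.05 for Eya1, 0.84 for Eya2, 1.23 for Hes6, -0.49 for Lrp4, -0.42 for Mef2c and -0.29 for Mef2d, close to those above. With the motile cilia covariate none passed (adjusted p 0.781 to 0.979), at 0.12 for Eya1, 0.11 for Eya2, -0.13 for Hes6, -0.41 for Lrp4, -0.12 for Mef2c and -0.062 for Mef2d. Under that covariate 0.0988% of all genes passed for this difference, against 10% without it, so a lost call is not particular to any gene here. Scaled by total counts, Mef2d was at -0.030, Mef2c at -0.29 and Lrp4 at -0.27, and none of the 3 passed (adjusted p 0.792, 0.106 and 0.152). With the Y-linked covariate Hes6, Mef2c and Mef2d were at 1.25, -0.47 and -0.27 and did not pass (adjusted p 0.0642, 0.0762 and 0.0610), nor did Mef2d with limma-voom or with no filter (both -0.26, adjusted p 0.0518 and 0.0664).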

How the results depend on the processing

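No paired analysis was possible because the replicate numbers are not shared between groups. Of the 5 tested genes, the number called for genotype in C57BL/6 was 1, and 0 with the motile cilia covariate; leaving out 1 library gave 0 to 1 (0 without C57BL/6 wild type replicate 1 or mutant replicates 5 or 6). Between wild type strains it was 1, 2 with limma-voom or the Acta1 covariate (Msc added, 1.34 and 1.499, adjusted p 0.0473 and 0.0193), 0 with the motile cilia covariate, and 1 to 2 with 1 library left out (2 without C57BL/6 wild type replicate 2). Between mutant strains the motile cilia covariate gave 1 (Tbx1, 1.51, adjusted p 0.0367) in place of 0. Averaged over strains it was 1, 0 with limma-voom or the motile cilia covariate, and 0 to 1 with 1 library left out (0 without C57BL/6 wild type replicate 1, C57BL/6 mutant replicates 5 or 6, BALB/c wild type replicate 13 or BALB/c mutant replicate 18). In each case without another gene named the call was that of Pax7. The number of genes correlated with Acta1 was 3, and 2 to 4 with 1 library left out; the cause was not tested. With the motile cilia covariate 4 values called without it changed sign and none of them then passed: Pax7 between wild type strains (0.11), Hes6 (0.057) and Pax3 (0.81) for genotype in C57BL/6, and Hes6 for the difference between strains (-0.13). That covariate also ended all 16 pathway gene calls in C57BL/6, where some values stayed close (Lrp4 0.70, Chodl -0.96, Megf10 0.53) and others did not (Eya1 -0.075), and genotype accounted for 76.5% of its variance there. Scaling by total counts shifted all genes by a median of -0.20 for genotype in C57BL/6, -0.11 and 0.12 between wild type and mutant strains and 0.23 for the difference of effects. Depth limits Myf5, Myf6, Myod1 and most Pax7 values outside C57BL/6 wild type, which rest on few read pairs.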

Other observations

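The 2 libraries with the most Acta1 differed in how much of the regulators they held relative to it, a pattern picked out after the values were seen. C57BL/6 wild type replicate 2 had 1052 Acta1 counts and BALB/c mutant replicate 16 had 5170. Per 1000 Acta1 counts, Myog stood at 68.4 in the first and 7.74 in the second, a ratio of 8.85 (95% counting interval 4.94 to 16.3). The ratio was 12.3 for Myod1 (interval 4.47 to 38.8), 13.8 for Myf5 (4.65 to 49.0) and 7.37 for Myf6 (1.74 to 35.6). It was 49.1 for Pax7 and 10.4 for Chrna1, and lower for Msc (4.35, interval 2.35 to 7.99) and Tbx1 (2.46, interval 1.07 to 5.32), which lay within the range of the muscle list. For the 15 other genes of that list the ratio ran from 0.172 for Myh8, the perinatal myosin, to 4.69 for Actc1, the embryonic actin, with a median of 1.68. The intervals cover counting error only, 1 library stands on each side, and no test between groups can be drawn from it.

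In the authors' deposited table Chrna1 had a log2 value of -0.87 for C57BL/6 mutant over BALB/c mutant (q 0.00489). The deposited counts of Chrna1 in those libraries were 22, 18 and 20 against 16, 12 and 32, and the fit to them gave BALB/c minus C57BL/6 as 0.05 (SE 0.643, adjusted p 0.963, edgeR). The cause of the difference between the 2 sources was not tested.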
